A study of Mus musculus with 8 samples.

Results

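The arrays described here compare nicotine at 3.0 mg/kg/day with saline in newborn mouse tissue that the labels give as palate. They were chosen by their sample titles: 2 arrays of nicotine at 3.0 mg/kg/day and 2 arrays of saline, 4 of the 8 arrays of the series. All 4 came from BALB/c pups on postnatal day 1, and RNA was taken from what the labels give as the posterior part of the palate. Each dam had carried an osmotic minipump under the skin, filled with nicotine or with physiological saline, until birth at about day 21. The surgery and pump were therefore shared by both groups. Removal of a clip on day 14 is also given for both groups. The other 4 arrays of the series, 2 at 1.5 and 2 at 4.5 mg/kg/day, are used below only for the spread and to show where 3.0 mg/kg/day differed from the neighbouring doses. The labels call the 2 arrays of a group biological replicates and give 2 pups, but not how many pups went into an array or from how many litters. The p-values below rest on a spread pooled over all 8 arrays, taken as equal in every group. With litters unknown, they do not measure the spread between litters. The markers do not settle whether palate was among the tissues. Face and jaw genes above the 60th percentile of level in both arrays numbered 1 of 18 at nicotine 3.0 and 0 in saline. Tooth genes numbered 2 and 1 of 11, and palate formation genes 33 and 30 of 48. The arrays held RNA of stomach, intestine and liver in saline, of kidney mainly in saline replicate 2, and of lung and brown fat at nicotine 3.0. Each change below is therefore one in RNA labelled as palate.

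Nicotine acts on nicotinic acetylcholine receptors, ion channels built from several subunits around a pore. The muscle form sits at the nerve-muscle synapse and is made of alpha1, beta1 and delta subunits with gamma before birth or epsilon after it, held in clusters by rapsyn. Neuronal forms are built from other alpha and beta subunits in neurons and in several epithelia. The rear of the palate holds the soft palate, which contains skeletal muscle, glands and a lining of oral and nasal epithelium. The palate itself forms before birth, when shelves from both sides grow, lift and fuse under the control of TGF-beta, BMP, sonic hedgehog and several homeobox genes.

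Values are Affymetrix intensities for 45101 probe sets, of which 34945 name 1 gene and stand for 18193 genes. Median intensities per array lay between 20.6 and 25.3. The 2 arrays of nicotine 3.0 were the closest pair of the series (r = 0.987 across probe sets, which are not independent replicates), while the 2 saline arrays were the least close (r = 0.939). Probe sets that differed by more than 1 log2 unit between the 2 arrays numbered 213 at nicotine 3.0 (0.61%) and 2277 in saline (6.52%). Replicate 1 of both groups carried Y-linked RNA (Eif2s3y at 301 and 236) and replicate 2 did not (4.58 and 4.83), so each group held 1 array of each kind. The poly-A control RNAs added before labelling stood apart in 1 array: their median was 5.41 in nicotine 3.0 replicate 1 and 154 to 325 in the other 7 arrays. The controls added at hybridization had medians of 370 in that array and 336 to 481 in the others. Actin probe sets at the 3' end of the transcript, compared with those at the 5' end to judge how intact the RNA was, gave ratios of 1.74 and 1.65 in the saline arrays and 1.14 and 1.05 at nicotine 3.0. The part of the poly-A controls and of this ratio in the results was not tested.

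The tissue was checked against markers first, because genes of other organs differed between the groups. Levels here are medians of log2(intensity + 16) over the genes of a list. Genes that shape the palate stood at 6.93 and 6.36 in saline and 7.09 and 6.87 at nicotine 3.0 (48 genes). Patterning genes of face and jaws stood at 4.84, 4.94, 4.99 and 4.96 in the same order (18 genes), and tooth genes at 4.41, 4.46, 4.47 and 4.65 (11 genes). For scale, 40% of probe sets had a level below 4.94. Skeletal muscle genes were high in each, at 10.17 and 9.58 in saline and 10.83 and 10.54 at nicotine 3.0 (45 genes). Stomach genes were at 7.03 and 6.97 in saline and 4.56 and 4.58 at nicotine 3.0 (23 genes). Liver genes stood at 8.08 and 11.43 against 4.75 and 4.58 (29 genes), and kidney genes at 5.49 and 8.80 against 4.72 and 4.55 (16 genes). Lung genes ran the other way, at 4.99 and 5.0 in saline and 8.88 and 7.16 at nicotine 3.0 (23 genes). In such bulk tissue, fewer cells of a type and less RNA per cell cannot be told apart.

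**Figure D1:**
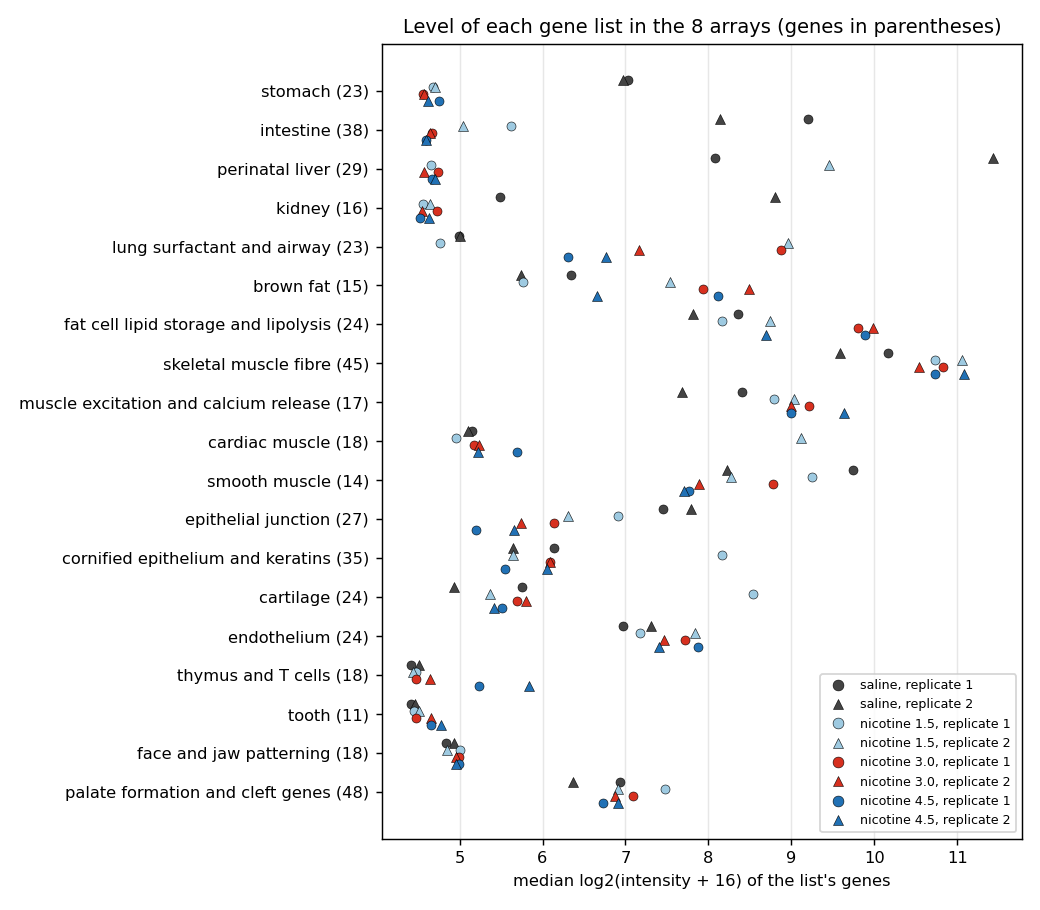
Median log2(intensity + 16) of the genes of each list (horizontal axis), 1 point per array, with the number of genes in parentheses; colours mark the dose and symbols the replicate. Stomach and intestine genes sit apart in the 2 saline arrays, lung and brown fat genes are higher in the 2 nicotine 3.0 arrays than in saline, and tooth and jaw genes lie near 4.4 to 5.0 in every array.

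Genes of brown fat, fat storage and skeletal muscle were higher at nicotine 3.0 mg/kg/day than in saline, and genes of the stomach, the intestine and epithelial junctions were lower. Of 34945 probe sets, 977 passed (2.80%; limma, Benjamini-Hochberg adjusted p under 0.05), 384 higher (1.10%) and 593 lower (1.70%). On the unnormalized values the split was 238 higher and 693 lower. Taking the probe set with the highest mean for each gene, 599 of 18193 genes changed (3.29%), 215 higher (1.18%) and 384 lower (2.11%). In all 599 the 2 nicotine arrays lay outside the range of the 2 saline arrays. Among all genes, both nicotine arrays lay above both saline arrays in 31.7% and below both in 24.0%, and the fold change was positive in 54.6% of genes and 54.8% of probe sets. These shares, and the 1.18% and 2.11% of genes that rose or fell, are the background for such counts in the lists below. The median change of all genes was 0.04 log2 units. The falls were larger than the rises: 195 genes fell by more than 2 log2 units and 46 by more than 4, while 19 rose by more than 2 and 1 by more than 4.

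**Figure D2:**
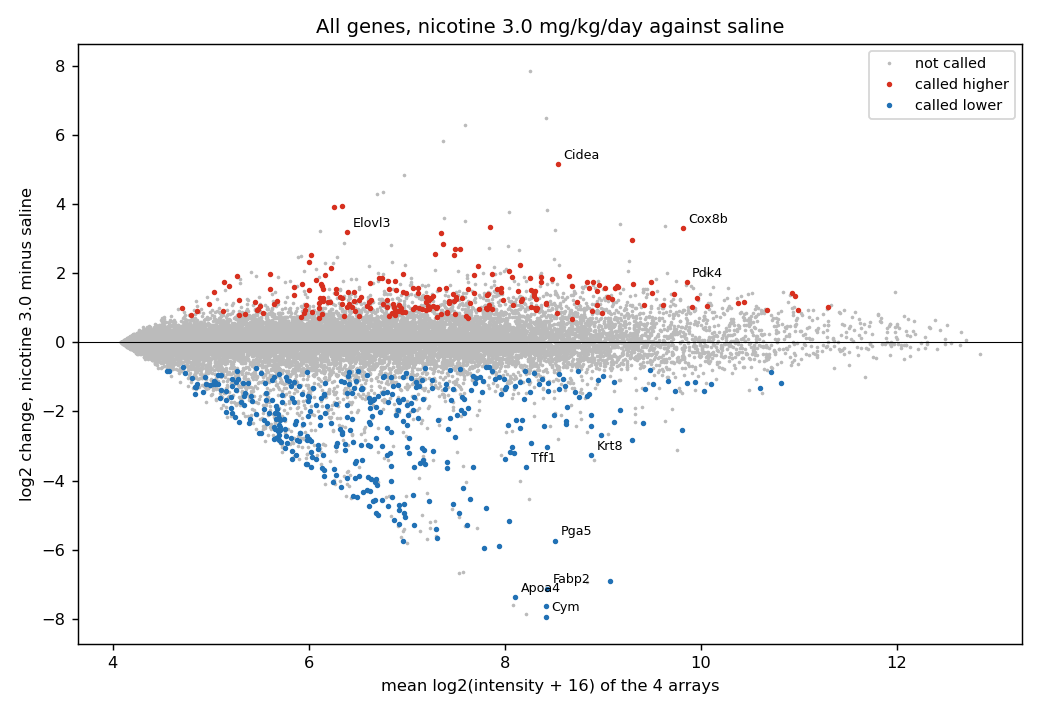
Log2 change of each gene at nicotine 3.0 against saline (vertical axis) by its mean log2(intensity + 16) over the 4 arrays (horizontal axis), 1 point per gene, with genes that passed the test in colour. The 384 falls reach -7.94 (Cym), and the largest of the 215 rises is 5.16 (Cidea); grey points above 5 are genes whose spread left them short of the test.

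The number of calls fell when either nicotine 3.0 array was left out, which also leaves that dose without a share in the pooled spread. The median change of the intestine list was -3.99 with both arrays, -3.94 without replicate 1 and -3.89 without replicate 2. For lung genes it was 0.98, 0.28 and 1.61 in the same order. Without replicate 1 of nicotine 3.0, 70 probe sets passed, and without replicate 2, 50, where the remaining array is taken to vary like the other groups. Without saline replicate 1 the number was 1725, without saline replicate 2 it was 1183, and without saline replicate 2 and nicotine 1.5 replicate 2, the arrays highest in liver genes, it was 1691. Of 108 genes that passed and were followed through the other settings, 25 and 22 still passed without nicotine 3.0 replicate 1 or 2, and none turned its direction in any of the 18 settings tried.

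Brown fat genes gave the largest rises. Brown fat burns lipid to make heat and lies between the shoulders and around the neck and upper trunk of newborn mice. Of 15 genes measured, 6 rose and 0 fell, against 1.18% of all genes that rose, and the list's median change was 1.80. Cidea, a lipid droplet protein typical of brown fat, was at 71.8 and 33.7 in saline and 2262 and 2610 at nicotine 3.0. It rose by 5.16 ± 0.54 log2 units (SE; adjusted p = 0.00741), a 35.7-fold difference. Elovl3, which lengthens fatty acids in brown fat, went from 19.3 and 7.17 to 168 and 339 (3.20 ± 0.37, adjusted p = 0.0103). Otop1, a proton channel found in brown fat, went from 1.41 and 6.11 to 234 and 348 (3.93 ± 0.70, adjusted p = 0.0388). Its saline values are near background, so the size depends on the added constant (6.11 with 1 and 2.36 with 64), and it passed in 9 of 18 other settings, not without any 1 of the 4 arrays. Replicate 2 was the higher of the 2 nicotine arrays for each of these 3, and no nicotine value came near a saline value.

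The other rises of the list were those of Cox8b, a cytochrome oxidase subunit, Ebf2, a transcription factor that marks brown fat precursors, and Dio2, which activates thyroid hormone. Cox8b rose by 3.30 ± 0.47 and Ebf2 by 2.57 ± 0.45. Dio2 stood at 24.5 and 18.9 in saline and 89.6 and 131 at nicotine 3.0, a rise of 1.80 ± 0.31 (adjusted p = 0.0369). Some of the list's largest differences did not pass, and their values are given here although they were chosen after they were seen. Ucp1, the uncoupling protein that makes brown fat produce heat, was at 5.97 and 2.78 in saline and 4681 and 4906 at nicotine 3.0, a difference of 7.86 ± 1.81 (adjusted p = 0.0729). Its SE comes from a fit over all 8 arrays, and the other doses ranged from 5.12 to 4025. Cox7a1, another cytochrome oxidase subunit, differed by 3.44 ± 0.69 (adjusted p = 0.0528). Prdm16, a regulator of brown fat identity, was at 90.8 and 146 in saline and 96.2 and 85.4 at nicotine 3.0, and its groups overlapped. Without nicotine 3.0 replicate 1 or 2, 1 and 0 genes of the list passed.

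Genes of fat storage and breakdown were higher as well, and 3 of 24 rose. Cidec, which enlarges lipid droplets, was at 84.0 and 39.6 in saline and 386 and 545 at nicotine 3.0 (2.71 ± 0.37, adjusted p = 0.0193). Pnpla2, the lipase that starts the breakdown of stored fat, went from 282 and 172 to 1892 and 1893 (2.96 ± 0.43, adjusted p = 0.0239). Lipe, the lipase that follows it, rose by 3.18 ± 0.48, although its 1 other probe set differed in direction. For all 3 the nicotine arrays lay close together and far above both saline arrays. In 21 of the 24 genes both nicotine arrays lay above both saline arrays, against 31.7% of all genes, and the median change was 1.61. Adipoq, the hormone adiponectin, did not pass, at 1021 and 45.1 in the 2 saline arrays and 2593 and 2941 at nicotine 3.0. Fabp4, the fatty acid binding protein of fat cells, was at 3933 and 1406 against 7179 and 7156 (both named after their values were seen). The count was 10 without saline replicate 1, 2 without saline replicate 2 and 0 without either nicotine 3.0 array.

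Other large rises lay outside the lists. Rbp7, a retinol binding protein of fat and its vessels, went from 125 and 23.6 to 674 and 837 (3.36 ± 0.50). Cyp4b1, a cytochrome P450 of lung and fat, went from 69.6 and 54.4 to 438 and 518 (2.72 ± 0.45). Oplah, an enzyme of glutathione turnover, went from 42.6 and 57.2 to 431 and 447 (2.85 ± 0.56, adjusted p = 0.0496). A530053G22Rik, a noncoding transcript, went from 6.65 and 2.98 to 200.5 and 459 (3.95 ± 0.46, adjusted p = 0.0113). Groups that do not overlap were part of the rule that picked these genes. The 12 largest rises ranged from 2.57 to 5.16 log2 units, with adjusted p-values from 0.00741 to 0.0496.

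**Figure D3:**
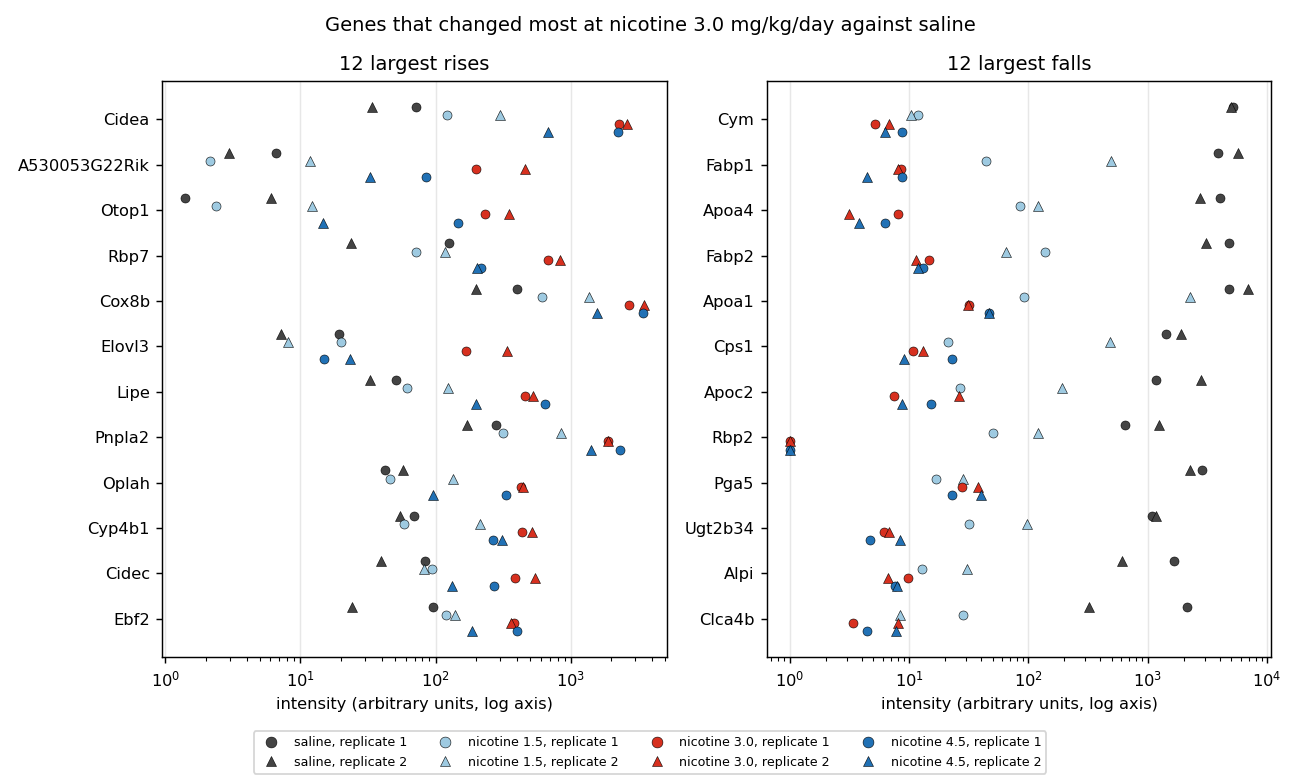
Intensities (log axes) of the genes that rose most (12) and fell most (12) at nicotine 3.0 against saline, 1 point per array for all 4 doses. The 24 genes were picked with both nicotine 3.0 arrays on one side of both saline arrays, so that gap is not a further result. For Elovl3 the 2 nicotine 3.0 arrays also sit apart from both other doses.

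Genes that burn fuel in mitochondria were higher in most members, but few passed alone. Among 33 genes of mitochondrial respiration 2 rose and 31 had both nicotine arrays above both saline arrays, with a median change of 0.71. Over all genes these shares were 1.18% and 31.7%. Idh3a, a subunit of a citric acid cycle enzyme, went from 1251 and 1105 to 3536 and 3274 (1.43 ± 0.26, adjusted p = 0.0398). Cox6a2, a cytochrome oxidase subunit of heart and skeletal muscle, rose by 1.30 ± 0.25 (adjusted p = 0.0452). Among 20 genes of fatty acid oxidation 1 rose, 18 had both nicotine arrays higher, and the median was 1.14. That 1 was Pdk4, a kinase that turns cells from glucose to fat, at 550 and 471 in saline and 1853 and 1809 at nicotine 3.0 (1.75 ± 0.25, adjusted p = 0.0216). Without either nicotine 3.0 array none of these passed. Without saline replicate 2, 3 genes of fatty acid oxidation and 1 of respiration passed, and without saline replicate 1 it was 1 of each list.

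Stomach, intestine and liver genes were lower at nicotine 3.0, and their part in the rises of muscle genes below was not tested. Skeletal muscle genes that rose included the machinery that links the nerve impulse to contraction. In this coupling the voltage sensor of the fibre membrane opens the calcium release channel of the inner store, and a pump returns the calcium. Of 17 such genes 8 rose and 0 fell, against 1.18% of all genes that rose. All 17 had both nicotine arrays above both saline arrays, against 31.7% of all genes, and their median change was 1.44. Ryr1, the release channel, was at 347 and 295 in saline and 1102 and 914 at nicotine 3.0 (1.57 ± 0.20, adjusted p = 0.0155). Cacna1s, the pore of the voltage sensor, went from 101 and 77.7 to 301 and 262 (1.58 ± 0.20, adjusted p = 0.0158). In both genes the 2 nicotine arrays stood clear of the 2 saline arrays. Tmem38a, an ion channel of the calcium store, went from 131 and 91.2 to 481 and 441 (1.98 ± 0.30, adjusted p = 0.0253). Hrc, which binds calcium inside the store, rose by 1.57 ± 0.23, Atp2a1, the calcium pump of fast fibres, by 1.04 ± 0.18, and Cacnb1, another subunit of the voltage sensor, by 1.44 ± 0.22. Jsrp1, a protein of the junction between both membranes, rose by 1.44 ± 0.24. Stac3, needed for the coupling itself, rose by 1.45 ± 0.28. Replicate 1 was the higher nicotine array in all 17 genes. The count was 13 without saline replicate 1, 2 without saline replicate 2, 3 without saline replicate 2 and nicotine 1.5 replicate 2, and 0 without either nicotine 3.0 array.

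Contractile and structural genes of muscle were also higher in most members. Of 45 fibre genes 3 rose and 37 had both nicotine arrays above both saline arrays, against 1.18% and 31.7% of all genes. The list's median was 0.85. Over all probe sets of the same genes the medians were 0.94 for fibre and 1.04 for excitation, and the difference between these lists was not tested. Myoz1, a protein of the Z-disc, went from 1021 and 864 to 2490 and 2103 (1.18 ± 0.18). Casq1, the calcium-binding protein of fast fibres, rose by 1.14 ± 0.20, and Myh4, the myosin of the fastest fibres, went from 25.0 and 17.7 to 77.8 and 71.2 (1.37 ± 0.27, adjusted p = 0.0491). Acta1, the actin of skeletal muscle (named after its values were seen), was at 6388 and 5964 against 7222 and 7176, a difference of 0.08 ± 0.18 after normalization. In the dystrophin complex, which ties the fibre to its matrix, 2 of 10 rose: Sgca, a sarcoglycan, by 1.57 ± 0.22 and Itga7, a laminin receptor, by 1.23 ± 0.16. In glycogen use and glycolysis 3 of 15 rose: Pygm, which breaks down glycogen, from 328 and 379 to 1485 and 984 (1.71 ± 0.28), Gys1, which makes it, by 1.56 ± 0.27, and Pfkm, a step of glycolysis, by 1.44 ± 0.21. Without saline replicate 1, 12 fibre genes, 5 of the complex and 5 of glycogen use passed. Without saline replicate 2 these were 0, 2 and 1, and without either nicotine 3.0 array 0 in each list.

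Of 20 regulators of muscle formation 2 rose. Mymk, the membrane protein that fuses muscle precursors, was at 74.2 and 59.2 in saline and 247 and 192 at nicotine 3.0 (1.59 ± 0.17, adjusted p = 0.00854). Cdh15, a cadherin of muscle precursors, was at 50.3 and 35.6 against 99.8 and 101 (1.10 ± 0.15, adjusted p = 0.0216). In both genes the 2 nicotine arrays lay above the 2 saline arrays. Myog, which drives the last step of muscle differentiation (named after its values were seen), was at 197 and 69.9 in saline and 280 and 258 at nicotine 3.0 and did not pass (1.14 ± 0.45, adjusted p = 0.212). The list's median was 0.80, the count was 5 without saline replicate 1 and 0 without either nicotine 3.0 array.

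Promoters of the muscle genes that rose are shown because these genes moved together. Muscle regulators of the MyoD family bind E-boxes, and CAGCTG, which reads the same on both strands, is one such sequence. The 20 genes of the muscle lists that rose were looked up in RefSeq promoters of the build GRCm38.p6 (250 bases before to 50 after the start), and 14 were found. In 7 of these 14 the window held CAGCTG, against 16.1% of all 27025 genes in the table, each by its first promoter. Muscle genes that did not rise were not counted apart, so these shares do not set the 14 apart from them. The match is a description of the letters, not of binding. Cacna1s at chr1:136052561-136052860 on the plus strand, Hrc at chr7:45335019-45335318 on the plus strand and Atp2a1 at chr7:126463024-126463323 on the minus strand are printed 5' to 3' with the motif in capitals. Counted from the start site, its first base lies at -123, -22 and -55 in these windows.
Cacna1s: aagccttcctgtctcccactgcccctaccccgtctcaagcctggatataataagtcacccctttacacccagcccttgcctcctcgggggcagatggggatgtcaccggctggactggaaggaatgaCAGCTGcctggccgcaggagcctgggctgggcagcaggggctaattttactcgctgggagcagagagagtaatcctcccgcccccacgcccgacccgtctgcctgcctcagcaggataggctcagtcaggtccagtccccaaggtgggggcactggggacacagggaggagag
Hrc: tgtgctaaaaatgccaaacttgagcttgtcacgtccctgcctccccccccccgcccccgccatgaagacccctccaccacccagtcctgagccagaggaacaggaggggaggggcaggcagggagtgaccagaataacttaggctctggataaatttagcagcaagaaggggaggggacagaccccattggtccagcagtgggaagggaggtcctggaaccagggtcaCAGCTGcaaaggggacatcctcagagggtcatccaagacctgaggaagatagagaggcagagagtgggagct
Atp2a1: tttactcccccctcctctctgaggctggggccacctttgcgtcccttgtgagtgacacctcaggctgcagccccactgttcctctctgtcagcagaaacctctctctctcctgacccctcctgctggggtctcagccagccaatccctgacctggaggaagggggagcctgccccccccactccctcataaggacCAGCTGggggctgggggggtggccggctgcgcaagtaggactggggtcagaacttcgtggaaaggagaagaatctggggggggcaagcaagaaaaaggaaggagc

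Of 12 genes of the muscle acetylcholine receptor and its synapse 2 rose, 1 of them a receptor subunit. Chrnb1, the beta1 subunit, was at 83.7 and 61.9 in saline and 156 and 145 at nicotine 3.0 (1.01 ± 0.15, adjusted p = 0.0269). Rapsn, the rapsyn that clusters the receptor, was at 18.8 and 15.5 against 47.0 and 41.5 (0.94 ± 0.16, adjusted p = 0.0357). For both genes the groups stood apart, but Rapsn was near background in saline. Chrna1, the alpha1 subunit that binds acetylcholine, was at 218 and 87.5 against 439 and 352 (1.45 ± 0.36, adjusted p = 0.0877). Chrnd, the delta subunit, was at 48.0 and 38.3 against 64.9 and 73.5 (0.65 ± 0.14, adjusted p = 0.0635). Chrng, the subunit of the fetal receptor, was at 46.4 and 16.2 against 73.8 and 65.0 (1.02 ± 0.27, adjusted p = 0.0940). None of these 3 passed, though their groups did not overlap. Chrne, the subunit of the adult receptor, stayed at background, with 3.72 and 2.09 against 4.68 and 3.74, and Musk, the kinase that organises the synapse, was at 22.8 and 7.71 against 33.2 and 21.9 (both named after their values were seen). Over the 12 genes the median change was 0.63 and 9 had both nicotine arrays above both saline arrays, against 31.7% of all genes. Muscle lists in the same arrays had median changes of 1.44 for excitation, 0.85 for fibre and 0.85 for the dystrophin complex. The part of muscle content in the receptor and synapse rises was not tested. The 2 calls were lost without saline replicate 2, without either nicotine 3.0 array and with replicate number as a block. Chrnb1 passed in 10 and Rapsn in 6 of the 18 other settings tried.

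Neuronal receptor subunits did not pass, and most lay near background. Of 10 subunits 0 passed, with a median change of -0.15. Chrna7, a subunit of neurons and immune cells, was at 25.0 and 9.46 in saline and 8.60 and 6.38 at nicotine 3.0 (-0.42 ± 0.20, adjusted p = 0.299). Chrna3, of autonomic neurons, was at 28.2 and 20.4 against 20.5 and 16.1, and Chrna5 was at 9.76 and 7.24 against 5.94 and 5.60. Chrna9, a subunit of sensory hair cells and keratinocytes, had the largest difference, with 21.2 and 10.5 against 73.1 and 59.2 (1.46 ± 0.34, adjusted p = 0.0744). Among 8 genes of acetylcholine supply and receptor modulators 0 passed, with Chat, which makes acetylcholine, at 11.6 and 9.85 against 30.1 and 25.5. Of 6 enzymes of nicotine metabolism 1 changed: Fmo5, a flavin monooxygenase of liver and gut, fell from 366 and 604 to 29.4 and 24.8 (-3.40 ± 0.57, adjusted p = 0.0340). In those 4 arrays liver genes had the levels given above. Intestine genes were at 9.20 and 8.14 in saline and 4.67 and 4.64 at nicotine 3.0. The part of both lists in this fall was not tested. Fmo5 did not pass without saline replicate 2 or without either nicotine 3.0 array.

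**Figure D4:**
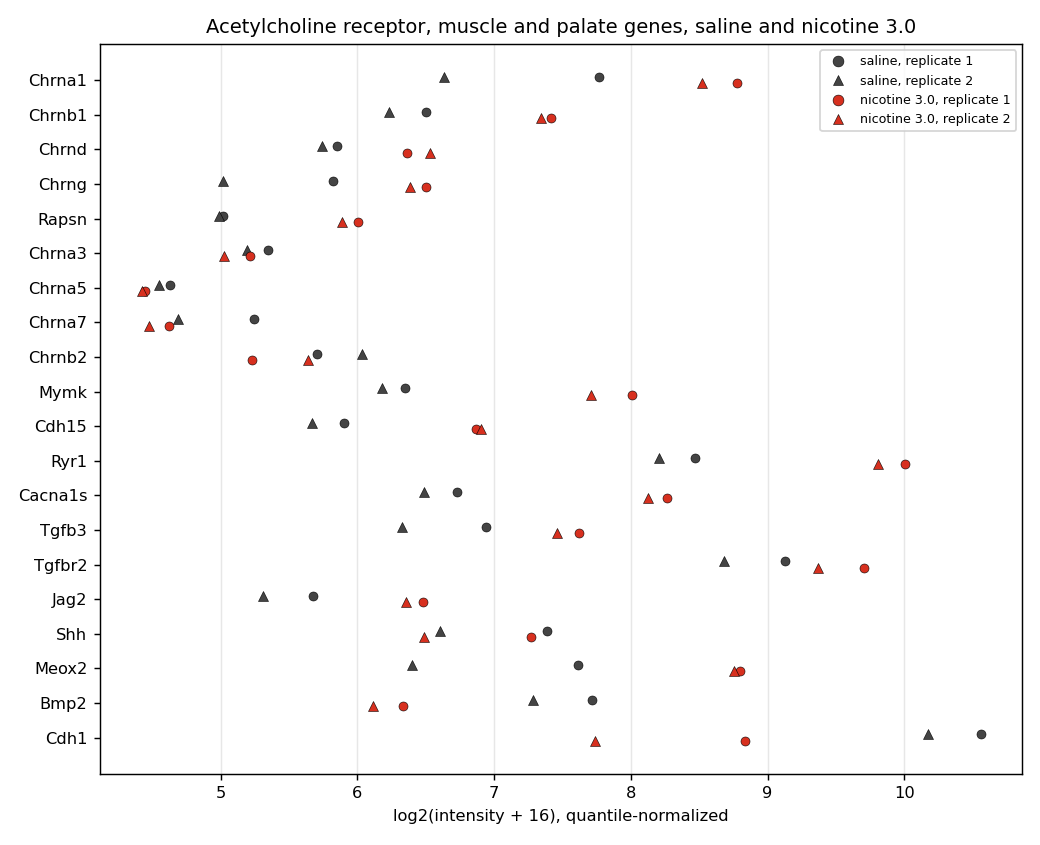
Quantile-normalized log2(intensity + 16) (horizontal axis) of acetylcholine receptor, muscle and palate genes in the 2 saline and 2 nicotine 3.0 arrays, 1 point per array. Chrnb1, Rapsn, Mymk, Cdh15, Ryr1 and Cacna1s passed the test; the other 14 genes did not, although the groups of several do not overlap.

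Of 48 genes of palate formation and clefting 0 passed in either direction. Their median change was 0.23, with 19 genes in which both nicotine arrays lay above both saline arrays and 9 in which they lay below, against 31.7% and 24.0% of all genes. Tgfb3, needed for the shelves to fuse, was at 118 and 67.3 in saline and 183 and 159 at nicotine 3.0 (0.91 ± 0.27, adjusted p = 0.128). Its receptor Tgfbr2 was at 550 and 424 against 880 and 668 (0.64 ± 0.22, adjusted p = 0.165). Jag2, a Notch ligand that keeps the oral epithelium from sticking, was at 40.2 and 23.6 against 72.1 and 63.5 (0.92 ± 0.21, adjusted p = 0.0678). The groups stood apart in these 3 genes. Meox2, a homeobox gene of palate and muscle precursors, was at 195 and 72.2 against 450 and 420 (1.77 ± 0.37, adjusted p = 0.0591). Bmp2, a bone morphogenetic protein, was at 210 and 148 against 63.2 and 51.0 (-1.28 ± 0.27, adjusted p = 0.0591). Hand2, a transcription factor of the jaw and heart, was at 76.0 and 55.3 against 8.91 and 7.27 (-1.66 ± 0.40, adjusted p = 0.0799). Meox2 and Bmp2 had the smallest p-values of the list, and in these last 3 genes too the groups did not overlap.

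Other regulators of the palate did not pass either. Shh, the signal of the oral epithelium, was at 164 and 85.4 in saline and 139 and 70.8 at nicotine 3.0 (-0.12 ± 0.39), and its groups overlapped. Osr2, which patterns the shelves, differed by 0.26 ± 0.46, Msx1, a homeobox gene of the front palate, by 0.32 ± 0.21, and Snai2, a repressor of epithelial genes, by -0.49 ± 0.25; the groups overlapped for Osr2 and stood apart for Msx1 and Snai2. Twist1 differed by 0.37 ± 0.54 and Trp63, the master regulator of stratified epithelium, by 0.08 ± 0.61, and the signs of Shh, Twist1 and Trp63 turned when single arrays were left out. Cdh1, the main cadherin of epithelia and a member of the junction list rather than the palate list, was at 1432 and 1147 against 460 and 196 and lay just short of the threshold (-2.08 ± 0.41, adjusted p = 0.0522). Without saline replicate 1, 4 genes of the palate list passed as higher, and without saline replicate 2, 1 passed as lower.

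Most of the intestine genes and of the stomach genes measured fell. In the stomach list 12 of 23 genes fell and 0 rose, against 2.11% of all genes that fell, with a median change of -1.21. Cym, or chymosin, a protease that curdles milk in the stomach of the newborn, was at 5168 and 5000 in saline and 5.20 and 6.75 at nicotine 3.0. It fell by 7.94 ± 0.14 log2 units (adjusted p = 5.64e-06) and passed in all 18 other settings. Its nicotine values are near background, where the added constant sets the size of a log2 difference: it was -9.62 with a constant of 1 and -6.28 with 64, and the same holds for other genes near background in 1 group. Pga5, a pepsinogen, went from 2839 and 2258 to 27.9 and 37.6 (-5.74 ± 0.24). Gkn2, a gastrokine of the stomach lining, went from 945 and 1003 to 22.9 and 25.5 (-4.55 ± 0.18). Atp4a and Atp4b, the subunits of the acid pump, fell by 2.85 ± 0.20 and 3.63 ± 0.20. Ghrl, the hunger hormone ghrelin, fell by 1.21 ± 0.19. All of these were near background at nicotine 3.0, and without either nicotine 3.0 array 9 of the 23 genes still passed.

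In the intestine list 23 of 38 genes fell and 0 rose, with a median change of -3.99. Apoa4, an apolipoprotein that carries dietary fat, was at 4057 and 2762 in saline and 8.00 and 3.11 at nicotine 3.0 (-7.38 ± 0.23, adjusted p = 7.28e-05). Fabp2, a gut protein that binds fatty acids, went from 4770 and 3095 to 14.6 and 11.4 (-7.14 ± 0.35). Rbp2, which takes up vitamin A, went from 645 and 1252 to 1 in both nicotine arrays (-5.74 ± 0.38, and -8.81 to -3.89 over the other settings). Alpi, the alkaline phosphatase of the brush border, went from 1651 and 612 to 9.83 and 6.69 (-5.40 ± 0.47), and Lct, the milk sugar enzyme, fell by 4.70 ± 0.43. Genes shared by gut and liver fell too: Fabp1 by 7.63 ± 0.85 and Apoa1 by 6.90 ± 1.17. Clps, the colipase of the pancreas, fell from 540 and 512 to 5.71 and 6.73 (-4.56 ± 0.14), the 1 of 14 pancreas genes that passed. The pancreas list as a whole was near background in both groups, at 4.49 and 4.60 in saline and 4.66 and 4.49 at nicotine 3.0. Its median change was 0.016. Without nicotine 3.0 replicate 1 or 2, 10 and 9 of the intestine genes passed.

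Liver and kidney genes were low at nicotine 3.0 but unequal between the saline arrays. Of 29 liver genes 26 had both nicotine arrays below both saline arrays, against 24.0% of all genes, with a median change of -5.02. Yet 1 passed: Cps1, an enzyme of the urea cycle, at 1425 and 1884 in saline and 10.8 and 13 at nicotine 3.0 (-5.95 ± 1.03, adjusted p = 0.0361). Alb, plasma albumin (named after its values were seen), was at 3399 and 7002 against 22.8 and 26.0 (-6.93 ± 1.93, adjusted p = 0.108). Afp, the fetal plasma protein, was at 3967 and 4825 against 2.45 and 4.88 (-7.86 ± 1.83, adjusted p = 0.0746). At nicotine 1.5, Alb was at 19.8 and 5001, and the fit shares its spread over all groups. Without saline replicate 2 and nicotine 1.5 replicate 2, 24 liver genes fell, without saline replicate 1, 4, and without saline replicate 2 alone or either nicotine 3.0 array, 0. Of 16 kidney genes 2 fell, Cubn, a receptor of protein uptake that the gut also makes, by 4.58 ± 0.38 and Gsta2 by 4.01 ± 0.69, and the count was 13 without saline replicate 1, 4 without saline replicate 2 and 0 without either nicotine 3.0 array.

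Genes of epithelial junctions fell, 11 of 27, with a median change of -1.48 and 23 genes in which both nicotine arrays lay below both saline arrays. Over all genes 2.11% fell and 24.0% had both nicotine arrays below both saline arrays. Cldn8, a claudin that seals tight junctions, was at 432 and 362 in saline and 6.74 and 11.9 at nicotine 3.0 (-3.96 ± 0.37, adjusted p = 0.00482). Epcam, an adhesion molecule of simple epithelia, went from 1008 and 365 to 36.9 and 25.8 (-3.63 ± 0.54). Krt8, a keratin of simple epithelia, went from 1726 and 1158 to 210 and 86.1 (-3.26 ± 0.46). Spint1, a protease inhibitor, and St14, the membrane protease it blocks, fell by 2.18 ± 0.24 and 1.48 ± 0.17. Grhl2, a transcription factor of epithelia, had the smallest of these falls, 0.87 ± 0.17. These genes are also made by the lining of the gut, whose genes were at 9.20 and 8.14 in saline and 4.67 and 4.64 at nicotine 3.0, and the part of that difference was not tested. Cornified epithelium, the keratin-rich surface of mouth and skin, had 0 of 35 genes that passed and a median change of 0.12. Without either nicotine 3.0 array 0 of the junction genes passed.

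Of 26 antioxidant genes under NRF2, the main regulator of the response to oxidants, 5 fell and 0 rose (median -0.57), and 1 fell with an added constant of 1 or of 64. Intestine genes (median -3.99) and liver genes (-5.02) were lower in the same arrays, and their part in these falls was not tested. Nqo1, a quinone reductase, was at 541 and 412 in saline and 21.5 and 22.3 at nicotine 3.0 (-3.59 ± 0.24, adjusted p = 0.00145) and passed in all 18 other settings. Hmox1, which breaks down heme, went from 107 and 123 to 43.7 and 32.7 (-1.13 ± 0.21), Gpx2, the glutathione peroxidase of the gut, fell by 2.03 ± 0.32, and Gstm1, a glutathione transferase, by 1.15 ± 0.21. The fifth, Gsta2, is named above with the kidney genes. The count was 8 without saline replicate 1, 2 without saline replicate 2 and 1 without either nicotine 3.0 array. Of 20 genes of salivary and mucosal secretion 5 fell, among them Bpifb1, a defence protein of mucosa, from 1154 and 1259 to 10.5 and 20.2 (-5.28 ± 0.22) and Muc5b, a gel-forming mucin, from 388 and 428 to 8.39 and 12.1 (-3.95 ± 0.33), and 1 without either nicotine 3.0 array.

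Few interferon-induced and cell division genes passed. Of 26 interferon genes 2 fell: Ifit1, which binds viral RNA, from 165 and 67.8 to 5.75 and 12.5 (-2.23 ± 0.38) and Irf1, a transcription factor, from 244 and 208 to 121 and 109 (-0.79 ± 0.15). Of 35 cell division genes 30 had both nicotine arrays below both saline arrays, with a median change of -0.82, against 24.0% of all genes. Cdc20, which opens the way out of mitosis, was the 1 that passed, at 357 and 511 against 168 and 183 (-1.15 ± 0.22, adjusted p = 0.0491). Cdt1, which licenses DNA replication, was at 326 and 472 against 144 and 169, and Kif23, a motor of cell separation, at 141 and 210 against 34.3 and 66.5; neither passed. Liver genes were higher in saline replicate 2, as given above, and their part in these values was not tested. Without saline replicate 1, 7 division genes fell, and without saline replicate 2 or either nicotine 3.0 array 0. Of the interferon genes 0 passed without either nicotine 3.0 array.

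Single genes changed in several further lists. Hoxa4, which gives cells their position along the neck and upper trunk, was at 23.1 and 15.8 in saline and 92.3 and 90.5 at nicotine 3.0 (1.68 ± 0.18, adjusted p = 0.00741), the 1 of 12 genes of Hox groups 4 to 8 that passed. Of 14 genes of Hox groups 9 to 13, which mark the lower trunk, 0 passed (median -0.68). In 10 of them both nicotine arrays lay below both saline arrays, against 24.0% of all genes. Hoxc10 was at 154 and 82.6 against 3.10 and 2.88 (-2.69 ± 0.85, adjusted p = 0.139). Of 19 imprinted growth genes 2 rose: Dlk1, a brake on fat cell formation, from 1407 and 1427 to 3422 and 2611 (0.93 ± 0.17), and Mirg, a noncoding RNA of the same locus on chromosome 12, by 1.35 ± 0.22. Sox18, a regulator of vessels, rose by 0.98 ± 0.15, the 1 of 24 endothelial genes. Nr4a1, a nuclear receptor induced within minutes of stimulation, rose by 0.98 ± 0.16, the 1 of 25 immediate early genes. In smooth muscle Hspb6 rose by 1.33 ± 0.26 and Pcp4 fell by 2.25 ± 0.39, out of 14 genes with a median of -1.05, of which 9 had both nicotine arrays below both saline arrays. Without saline replicate 2, 0 smooth muscle genes rose and 3 fell, and without nicotine 1.5 replicate 2 as well, 0 and 8. Without either nicotine 3.0 array no gene of these lists passed.

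No gene passed in the lists of cartilage (24 genes), bone formation (14), fibrillar collagen and matrix (29), osteoclasts (17), cardiac muscle (18), neurons and glia (19), thymus and T cells (18), macrophages (20), red blood cells (18), the circadian clock (19) or the TGF-beta and BMP (36), hedgehog (15) and Wnt (39) pathways. At an unadjusted p under 0.05, 23.2% of all genes would pass. Tnmd, a tendon protein, had the largest difference among the collagen and matrix genes, at 325 and 79.1 in saline and 966 and 737 at nicotine 3.0 (2.24 ± 0.61, adjusted p = 0.102). Without saline replicate 1, 6 genes of that list rose and 1 fell, 3 of bone formation, 3 of the TGF-beta and BMP list and 2 of osteoclasts rose, and 5 macrophage and 4 red blood cell genes fell. Without saline replicate 2, 5 genes of neurons and glia fell.

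Several lung genes were far above saline in both nicotine arrays, and 0 of 23 passed. With only the 4 arrays 3 passed, 2 with replicate number as a block as well, and 3 without saline replicate 2 and nicotine 1.5 replicate 2. The list's level was 4.76 and 8.96 in the nicotine 1.5 arrays, which share the estimate of spread. Sftpc, the surfactant protein that lines the air sacs, was at 33.5 and 12.6 in saline and 5671 and 2109 at nicotine 3.0 (6.5 ± 2.06, adjusted p = 0.142). Scgb1a1, the secretory protein of the airway lining, was at 5.54 and 6.26 against 3253 and 1014 (6.30 ± 1.87, adjusted p = 0.123). Scgb3a2, another airway protein, was at 7.03 and 4.98 against 1328 and 1323. Replicate 1 was higher than replicate 2 in 20 of the 23 genes. Ager, a receptor of the flat cells that line the air sacs, was at 1312 in replicate 1 and 157 in replicate 2, and Sftpb, another surfactant protein, at 1116 and 211. Scgb3a1 ran the other way, at 4.90 and 227. The median change of the list was 0.98, 0.28 without nicotine 3.0 replicate 1 and 1.61 without replicate 2. Cyp4b1, named above among the largest rises, is also made in the lung, and the part of lung genes in its rise was not tested.

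Outside lung and sex-linked genes the 2 nicotine 3.0 arrays also differed in some lists. Smooth muscle genes were at 8.78 and 7.89, with 13 of 14 higher in replicate 1, and 24 of 27 junction genes were higher in replicate 1. In the other direction, 0 of 20 macrophage genes and 3 of 35 cell division genes were higher in replicate 1. The share over all genes was not counted. These counts, and those for lung, brown fat and muscle excitation genes, therefore have no background beside them. The median absolute difference between the 2 nicotine 3.0 arrays was 0.15 log2 units, against 0.23 in saline. By over 1 log2 unit, 160 probe sets were higher in replicate 1 and 53 in replicate 2. The largest differences towards replicate 1 were those of Eif2s3y (3.58), Gm5083 (3.16), Ager (2.81), Kdm5d (2.51) and Cldn18 (2.36). Eif2s3y and Kdm5d are genes of the Y chromosome and Cldn18 is a claudin of lung and stomach. Towards replicate 2 they were those of Xist (-5.32), the RNA that silences an X chromosome, Scgb3a1 (-3.56), Calm4 (-1.96), Wfdc18 (-1.89) and Stfa3 (-1.74). Brown fat genes were higher in replicate 1 in 3 of 15 members, and muscle excitation genes higher in replicate 1 in all 17.

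**Figure D5:**
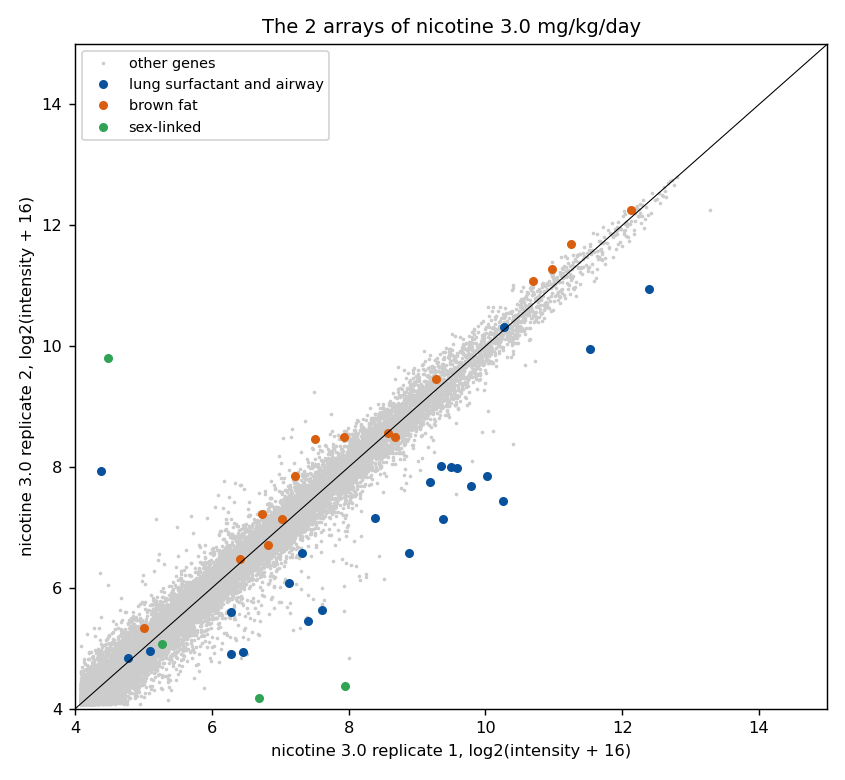
Log2(intensity + 16) of each gene in nicotine 3.0 replicate 1 (horizontal axis) and replicate 2 (vertical axis), with lung, brown fat and sex-linked genes in colour and the line of equal levels. Most lung genes lie below the line (20 of 23 higher in replicate 1). Brown fat genes lie mostly above it (3 of 15 higher in replicate 1, median of replicate 1 minus replicate 2 -0.29). Xist, Eif2s3y and Kdm5d lie far off it.

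Against the mean of 1.5 and 4.5 mg/kg/day, no probe set of nicotine 3.0 passed. The difference itself uses no saline array, but its spread is pooled over all 8 arrays, saline included. No setting of this comparison left out a saline array. Of 34945 probe sets 0 passed by limma, 2927 had an unadjusted p under 0.05 (8.38%; 7.79% of genes), and the smallest adjusted p was 0.111. That smallest value was for Hpdl, an enzyme of coenzyme Q synthesis. It and Abhd15, a protein of fat cells, are named after their values were seen. Hpdl was at 53.2 and 60.5 at nicotine 3.0, 3.17 and 5.40 at 1.5 and 12.3 and 11.1 at 4.5 (1.64 ± 0.12). Abhd15 was at 116 and 114 at nicotine 3.0, 27.6 and 31.8 at 1.5 and 55.6 and 51.4 at 4.5 (1.21 ± 0.11). Elovl3 was at 168 and 339, against 20.0 and 8.05 at 1.5 and 15 and 23.4 at 4.5, a difference of 2.96 ± 0.32 (adjusted p = 0.277). In these 3 genes both nicotine 3.0 arrays lay above all 4 arrays of the other doses. Lists of brown fat and fat storage had median differences of 0.87 and 0.79 in this comparison and fatty acid oxidation 0.89, liver -0.93, cardiac muscle -0.82 and muscle wasting -0.73, while muscle excitation was at 0.02, stomach at 0.00 and intestine at -0.28. The brown fat level of nicotine 4.5 replicate 1, 8.11, lay between those of the nicotine 3.0 arrays, 7.94 and 8.49. Without nicotine 1.5 replicate 1, 13 probe sets passed, all lower at nicotine 3.0, and leaving out any other array of the 3 doses gave 0.

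The neighbouring doses, which share the saline arrays with 3.0 mg/kg/day, are given side by side without a comparison between them. Against saline, Cidea stood at log2 differences of 1.76 at 1.5, 5.16 at 3.0 and 4.23 at 4.5 mg/kg/day. Elovl3 stood at 0.09, 3.20 and 0.38 in that order. Hoxa4 stood at 0.04, 1.68 and 1.02. Cym stood at -7.63, -7.94 and -7.83, and Nqo1 at -3.35, -3.59 and -3.01. Muscle genes are given in the same order: Ryr1 was at 1.56, 1.57 and 1.72, Mymk at 1.98, 1.59 and 2.02 and Chrnb1 at 1.13, 1.01 and 1.44. Pdk4 stood at 0.63, 1.75 and 2.52.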

How the data were processed

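RNA of 8 arrays was measured on Affymetrix probe sets. The authors deposited linear intensities; the sources used here do not say how these were summarised from the scans. Probe sets were named through GEO's platform annotation and matched to RefSeq. Because array medians of the deposited log2 values differed by 0.17, intensities plus 16 were put on a log2 scale and quantile-normalized over all probe sets but the controls. All 8 arrays were fitted with 4 group means in limma 3.58.1 (lmFit and eBayes, R 4.3.3). Adjusted p-values are Benjamini-Hochberg over 34945 probe sets, with no filter on level. Genes were called at an adjusted p under 0.05. Intensities are printed as deposited, and changes, SEs and list levels are on the normalized log2 scale. A gene stands for its probe set with the highest mean over 8 arrays. Array data carry no counts, so the number of arrays limits the precision. The fit had 4 residual degrees of freedom and 6.99 with the prior. On data simulated for nicotine 3.0 against saline in 34945 probe sets, 1.9% of 1.5-fold, 32.8% of 2-fold and 79.4% of 4-fold changes were recovered and 4.99% of calls were false. The simulation used independent errors and the same spread in every group. In the data, 6.52% of probe sets differed by over 1 log2 unit in saline and 0.61% at nicotine 3.0. The simulated rates may therefore not hold for these arrays. The genes named include the 12 largest rises and 12 largest falls that passed with both nicotine 3.0 arrays on one side of both saline arrays. The 5 that differed most in each direction between the nicotine 3.0 arrays are named too. So are up to 4 of each list with the smallest p and a fixed set. Exceptions are said in the text. The members and lists were chosen with earlier results of these data known. Alternatives were another scaling, added constant, filter, variance model, sample set and each array left out. Probe sets naming several genes (932) or none (9160) stayed out of the comparisons.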

Additional observations from a re-analysis of the deposited data

Results flagged for a closer look

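Among the 10092 probe sets that name no gene or several, which stand in no comparison above, 40 were higher at nicotine 3.0 by limma with both arrays above both saline arrays, and 50 were lower (0.892% called). One with no gene named was at 35.4 and 16.3 in saline and 233 and 419 at nicotine 3.0. One that names several genes was at 92.6 and 111 against 504 and 682.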

How the results depend on the processing

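The number of probe sets that passed for nicotine 3.0 against saline (977) was 392 with an added constant of 1, 507 with 1 probe set per gene above the 40th percentile, 1500 with array weights, 404 with only the 4 arrays of both groups and 1691 without saline replicate 2 and nicotine 1.5 replicate 2. Leaving out 1 array gave 50 to 1725. With replicate number as a block it was 489, and 118 in the 4 arrays alone. The numbers did not pair these samples (r = 0.0675 between same-numbered deviations), and in the 4 arrays the block coincides with Y-linked expression. Against the other doses, array weights gave 1 and leaving out 1 array gave 0 to 13. Trp63 turned to -0.012 as deposited, -0.010 with a constant of 64 and -0.82 without both saline replicate 2 and nicotine 1.5 replicate 2, and ranged from -0.82 to 0.98 with 1 array left out. Twist1 turned to -0.20 without those 2 arrays and ranged from -0.20 to 0.93 with 1 left out. Shh ranged from -0.51 without those 2 arrays to 0.28 without saline replicate 1. Prdm16 turned to 0.16 without those 2 arrays and ranged from -0.51 to 0.16 with 1 left out. Scgb3a1 ranged from -0.062 to 3.49. Calm4 turned to -0.43 without nicotine 3.0 replicate 2, and Cldn18 to -0.84 without replicate 1. The cause was not tested. Of the 108 genes that passed and were followed, 92 did as deposited, 57 with a constant of 1, 71 with the block and 64 in the 4 arrays alone.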
